A study of Mus musculus with 4 samples.

Results

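Cytosolic ribosomal proteins are the protein building blocks of the ribosomes that translate nuclear-encoded mRNAs. Their genes were read here in mouse bone marrow-derived dendritic cells, antigen-presenting cells grown in culture from marrow precursors. Members were chosen by name: symbols of the Rpl, Rps and Rplp series and Rpsa, without pseudogenes, the Rps6k kinases, Rps19bp1 and Rpl7l1. Of 102 symbols with such a name, 3 pseudogenes, 10 kinases and these 2 other genes were left out. The remaining 87 genes, of 23462 gene symbols on the array, comprised 53 of the large and 34 of the small subunit and were covered by 154 probes. No measured value entered the choice. On all 4 arrays 84 members were well above background, and 3 (Rpl37, Rpl39l and Rpl3l) were above it on no array.

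Cells came from the femurs of male C57BL/6J mice, labelled wild type. They were grown with 10 ng/ml GM-CSF, a myeloid growth factor, and 10% FBS until day 6. There were 4 groups with 1 array each: medium without stimulation, LPS at 100 ng/ml, LA at 20 mM, and LPS together with LA at the same doses. Stimulation lasted 4 h. LPS is a bacterial cell wall component sensed by the receptor TLR4, and LA is given in the labels as L-(+)-LA in a series whose title speaks of lactate. The labels state no culture time for medium, no pH for LA and no number of animals or cultures behind an array. With 1 array per group there are no replicates, so the differences below carry no p-value and their spread over cultures is unknown.

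Each ribosome joins a small subunit, which reads the mRNA, with a large subunit, which links the amino acids. The mRNAs of vertebrate ribosomal proteins are as a rule terminal oligopyrimidine (TOP) mRNAs: they start with a C followed by an uninterrupted run of C and T, and the protein LARP1 and the mTOR kinase pathway control through this tract how much of each mRNA is translated. Several members also act outside the ribosome. An array measures the mRNA, not its translation.

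The tract can be read in the genome at the annotated start of transcription. RefSeq promoters (build GRCm38.p6, 250 bases before the start to 50 after it, 300 in all) matched 66 of the 87 members, with 78 promoters. A C followed by at least 4 pyrimidines lay exactly at the start in 14 of 78 member promoters (17.9%), against 823 of 32851 promoters of all genes (2.51%). Within 5 bases of the start such a tract began in 33 (42.3%) against 18.3%. An annotated start can miss the true one by some bases, so a missing tract says only that these letters are not at this position. The windows below show 15 bases either side of the start, 5′ to 3′, with the tract at the start in capitals. Shown first are 6 members with the tract.
Rpl15, chr14:18270972-18271001, minus strand: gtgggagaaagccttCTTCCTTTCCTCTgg
Rpl35, chr2:39005117-39005146, minus strand: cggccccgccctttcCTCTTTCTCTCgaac
Rps10, chr17:27635230-27635259, minus strand: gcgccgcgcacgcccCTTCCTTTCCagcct
Rps6, chr4:86857353-86857382, minus strand: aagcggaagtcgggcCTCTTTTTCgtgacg
Rpl38, chr11:114668565-114668594, plus strand: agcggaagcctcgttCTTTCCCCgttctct
Rplp2, chr7:141447636-141447665, plus strand: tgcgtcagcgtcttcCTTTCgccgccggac
Next are 4 of the members at the ends of the range of differences reported below, none with a tract exactly at the start. In Rpl13a it begins within 5 bases of it. Other members at the ends do have the tract at the start, such as Rplp2, shown above, and Rps21, at the upstream of its 2 promoters.
Rpl24, chr16:55966260-55966289, plus strand: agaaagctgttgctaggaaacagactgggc
Rpsa, chr9:120127751-120127780, plus strand: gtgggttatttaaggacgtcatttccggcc
Rps15, chr10:80292416-80292445, plus strand: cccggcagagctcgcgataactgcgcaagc
Rpl13a, chr7:45128731-45128760, minus strand: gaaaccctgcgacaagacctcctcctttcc

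Some short motifs were searched on both strands of the same 300-base promoters, and no motif contains another. The palindrome CTCGCGAG, the core of an element bound by the transcription factor BANP, was in 8 promoters of 7 members (10.3%) and in 302 of all promoters (0.919%). CCGGAAGT, an ETS family element, was in 12 member promoters (15.4% against 3.89%), and AAGATGGC, a YY1 element, in 7 (8.97% against 2.75%). The Sp1 element GGGCGG was in 45 (57.7% against 35.7%). The MYC-type E-box CACGTG was in 8 (10.3% against 7.15%) and TATAAA, the TATA box, in 8 (10.3% against 13.6%). Of these 6 motifs the palindrome had shares that differed most in proportion, and its first match in each of the 7 members is printed here with the palindrome in capitals.
Rpl10a, chr17:28328524-28328553, plus strand: aacgggcaactCTCGCGAGaacgcgggctc
Rpl12, chr2:32961648-32961677, plus strand: ggccagcggttCTCGCGAGagctgagcttt
Rpl26, chr11:68901530-68901559, plus strand: gctccgagactCTCGCGAGatctcgcggca
Rpl27a, chr7:109519162-109519191, plus strand: gcgcctgctacCTCGCGAGacttcgtgagc
Rps19, chr7:24884555-24884584, plus strand: gtttagccgctCTCGCGAGcactccgaaat
Rps28, chr17:33824544-33824573, minus strand: ccgcgtgcggtCTCGCGAGagcgaaagtga
Rps6, chr4:86857399-86857428, minus strand: cgccggctgttCTCGCGAGaacttagagcg
A match is a run of letters, not a shown binding site, and binding was not measured.

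Each array held 59305 spots that were not controls, of which 56.5% (LPS) to 64.1% (LA) were well above background. No spot was saturated, which matters for members because their probes are among the brightest. Levels are log2 of the background-subtracted signal minus the log2 of each array's 75th percentile, and a gene is read from its brightest probe. Differences are differences of these log2 levels, so 0.58 is 1.5-fold and 1 is 2-fold. A gene counted as measured in a comparison when it was well above background on both arrays. The spots of 300 probes printed 10 times, 60 of them probes of members, had a median SD of 0.050 to 0.053. This gives an SD of 0.072 for a difference of single spots, called the spot SD below. Spots of a probe are averaged, so probes printed 10 times have a smaller spot error. That error covers spots on the array only, not labelling, culture or animal.

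The members shared an order of arrays, from LPS as the highest through medium and LA to LPS with LA as the lowest. This order held for 62 of the 84 measured members (11.7% of the 13368 genes measured on all arrays), and 13 more differed from it only in that LA was the lowest array. LPS was the highest array for 81 members (36.6% of all genes), and LPS with LA the lowest for 64 (23.9%). The pattern of LPS highest and both LA arrays below medium was met by 75 of 84 members and by 2788 of these genes (20.9%). Against medium, the median member lay at 0.30 on the LPS array, at -0.31 on the LA array and at -0.38 on the combined array. In the summed signal of all genes, each read from its brightest probe, the members held 3.46%, 3.60%, 2.70% and 2.55% on the medium, LPS, LA and combined arrays. Fewer cells rich in these mRNAs and less of them in each cell cannot be told apart in RNA from whole cultures.

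**Figure D1:**
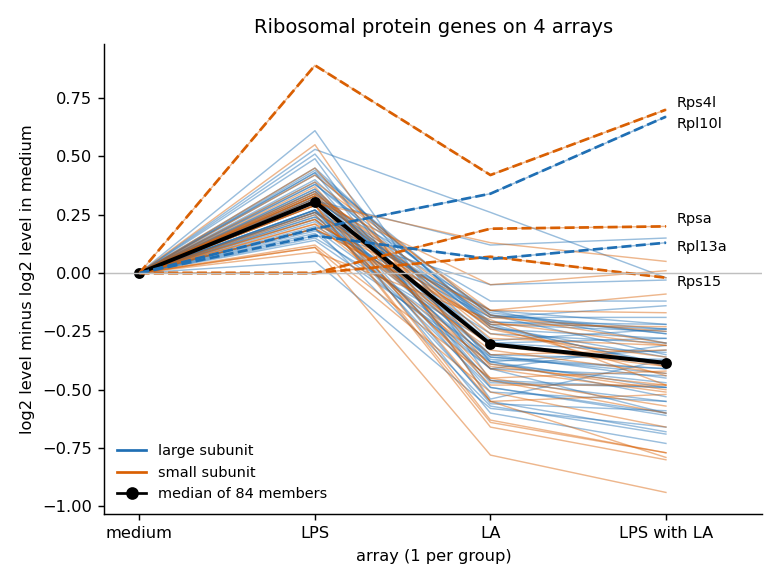
Level of all but 1 of the 84 measured members, each relative to its own level in medium (log2, y axis) on the 4 arrays (x axis, 1 array per group); blue lines are large and orange lines small subunit genes, the black line is the median of the 84, and dashed lines mark the named genes. The black line stands at 0.30 (LPS), -0.31 (LA) and -0.38 (LPS with LA), while Rpsa, Rpl13a, Rps15, Rps4l and Rpl10l are not below medium with LA alone; scaled on the brightest decile of probes the LPS median is -0.01.

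The size of this pattern depends on what the arrays are scaled on, because bright genes as a class differed in the same direction. Of the measured members, 76 or 77 lay in the brightest decile of genes by mean level, depending on the comparison. In that decile the median of all genes was 0.16 for LPS minus medium, -0.08 for LA minus medium and -0.22 for LPS with LA minus LPS. Members in the same decile had medians of 0.29, -0.35 and -0.71. Of these members, 66 of 76, 71 of 77 and 71 of 76 lay on the side of the decile's own median that the members took. The LPS difference of the median member in this decile was therefore 0.13 beyond the median of the decile, and the LA differences 0.27 and 0.49 beyond it. Brightness was not matched within the decile. Scaled on the median of the brightest decile of probes, which puts the median of all genes at -0.28, 0.14 and 0.43, the member medians were -0.01, -0.17 and -0.23. Under quantile normalization they were 0.02, -0.12 and -0.17. So the LA differences kept their direction under each scaling tried, whereas the LPS difference was near 0 under both of these and changed sign under the brightest decile. Differences between members on the same arrays do not depend on a scaling by 1 factor per array.

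**Figure D2:**
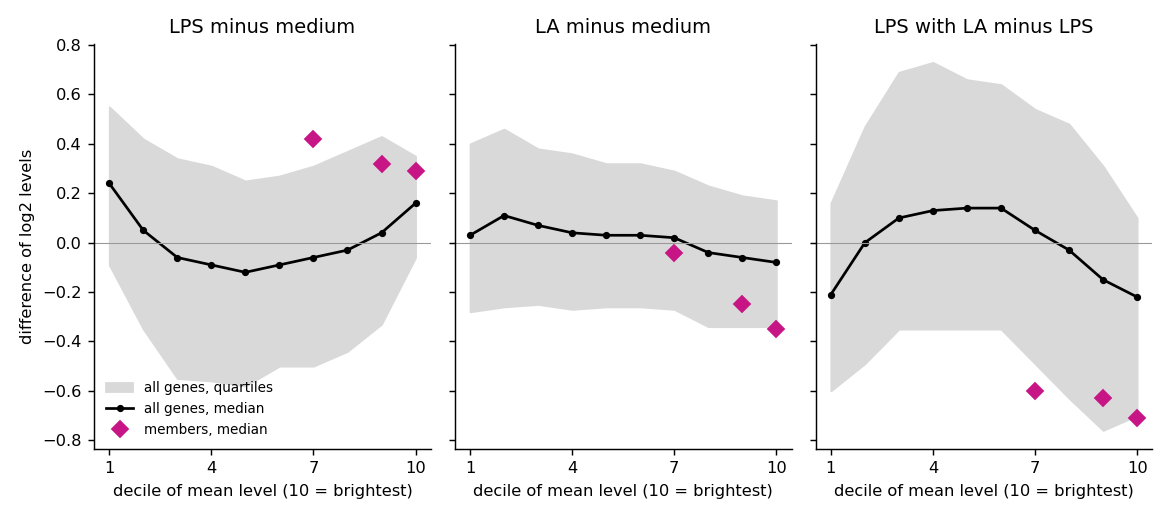
Difference of log2 levels (y axis) by decile of mean level (x axis, 10 is the brightest) for 3 comparisons; the line and band are the median and quartiles of all measured genes and the diamonds the medians of members in deciles that hold at least 2 of them. In the brightest decile the members' medians of 0.29, -0.35 and -0.71 lie beyond the all-gene medians of 0.16, -0.08 and -0.22.

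LPS was set against medium to see the response to a bacterial stimulus. Differences of members were small and narrow: the quartiles were 0.22 and 0.35, the SD over members was 0.13, and the range ran from 0.00 to 0.88. Only 2 of 84 members were at least 1.5-fold higher and 0 were lower, where 16.3% of 13592 measured genes were that much higher and 17.4% lower. Above the median of all genes (0.03), where 50% of genes lie by construction, were 82 members, the exceptions being Rps15 and Rpsa. Few members were thus far from medium, while nearly all lay on the same side of the genes' median.

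The 6 members with the greatest LPS differences were Rps4l, Rpl24, Rps26, Rpl22l1, Rpl21 and Rpl5. Rps4l, a relative of Rps4x whose RefSeq record is a noncoding transcript, lay at -0.46, 0.43, -0.04 and 0.24 on the medium, LPS, LA and combined arrays. Rpl24, a large subunit protein at the bridge between both subunits, lay at 4.45, 5.06, 3.99 and 3.90 in the same order, which is used below. Rps26, a small subunit protein at the mRNA exit channel, lay at 6.05, 6.60, 5.50 and 5.53. For Rpl24 and Rps26 the LPS array was the highest and both LA arrays were below medium, by less than 1.5-fold, whereas Rps4l was lowest in medium. These 3 genes were 1.84-fold, 1.53-fold and 1.47-fold higher with LPS. Rpl22l1, Rpl21 and Rpl5 differed by 0.53, 0.51 and 0.49.

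At the other end 6 members differed little between LPS and medium. Rps15, a small subunit protein near the decoding centre, and Rpsa, a small subunit protein that also serves at the cell surface as a laminin receptor, both differed by 0.00. Rplp2 of the stalk differed by 0.05, Rps16 by 0.09, and Rps21 and Rps7 by 0.11 each. Of these 6, the values of Rps15, Rpsa and Rplp2 were within the spot SD of a difference (0.072).

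LA alone was set against medium to see what it does without LPS. The median member was 0.31 lower, with quartiles of -0.45 and -0.19, and the spread over members (SD 0.23) was wider than for LPS. Of 84 members 76 lay below the median of all genes (0.01). At least 1.5-fold lower were 6 members and 0 were higher, where 11.1% of 14554 measured genes were lower and 10.7% higher. Among these 6 were Rps21, Rps9, Rps3a1, Rps4x and Rpl7, and 5 of the 6 were small subunit genes.

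Rps21 had levels of 6.55, 6.66, 5.77 and 5.61, and was 1.72-fold lower with LA alone. Rps9, another small subunit protein, lay at 7.84, 8.13, 7.18 and 7.04, and was 1.58-fold lower with LA. In both genes the LA arrays lay close together and far under the other arrays. Rps3a1, Rps4x and Rpl7 were lower by 1.56-fold, 1.55-fold and 1.51-fold. Higher with LA than in medium were Rps4l (0.41), Rpl10l (0.34), Rpl22l1 (0.26), Rpsa (0.19), Rps19 (0.12), Rpl29 (0.11), Rps15 (0.07) and Rpl13a (0.06). The first 3 of these are paralogs of other members.

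Adding LA to LPS was set against LPS alone to see what LA does to stimulated cells. The median member was 0.69 lower, with quartiles of -0.85 and -0.54, and the highest member lay at 0.48. At least 1.5-fold lower were 58 of 84 members, where 22.5% of 13631 measured genes were that much lower, and 0 were higher, where 21.4% of genes were. At least 2-fold lower were 10 members, where 12.8% of genes were, so the share past 2-fold was near that of all genes while the share past 1.5-fold was not. Below the median of all genes (-0.02) lay 81 members. The counts follow the scaling: with the brightest decile as the base 9 members were at least 1.5-fold lower and 2 higher, in the authors' table also 9 and 2, and after quantile normalization 4 and 1. There the median of all genes was 0.43, 0.43 and 0.08, so the shares of all genes above do not apply to these counts.

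Near the lower end was Rpl24 at -1.16, 2.23-fold lower on the array with LPS and LA than with LPS, and its other probe gave -1.10. Rps14, a small subunit protein whose loss of 1 copy is known from a human myelodysplastic syndrome, had levels of 6.59, 6.92, 6.04 and 5.80, and was 2.18-fold lower. The LPS array was the highest and the combined array the lowest for both of these genes. Rps4x (4.98, 5.31, 4.35 and 4.21) and Rps9 were both 2.13-fold lower, and Rps26 2.10-fold. Also past 2-fold were Rps3a1, Rpl7, Rps21 and Rpl39, at 2.08-fold, 2.07-fold, 2.07-fold and 2.04-fold.

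**Figure D3:**
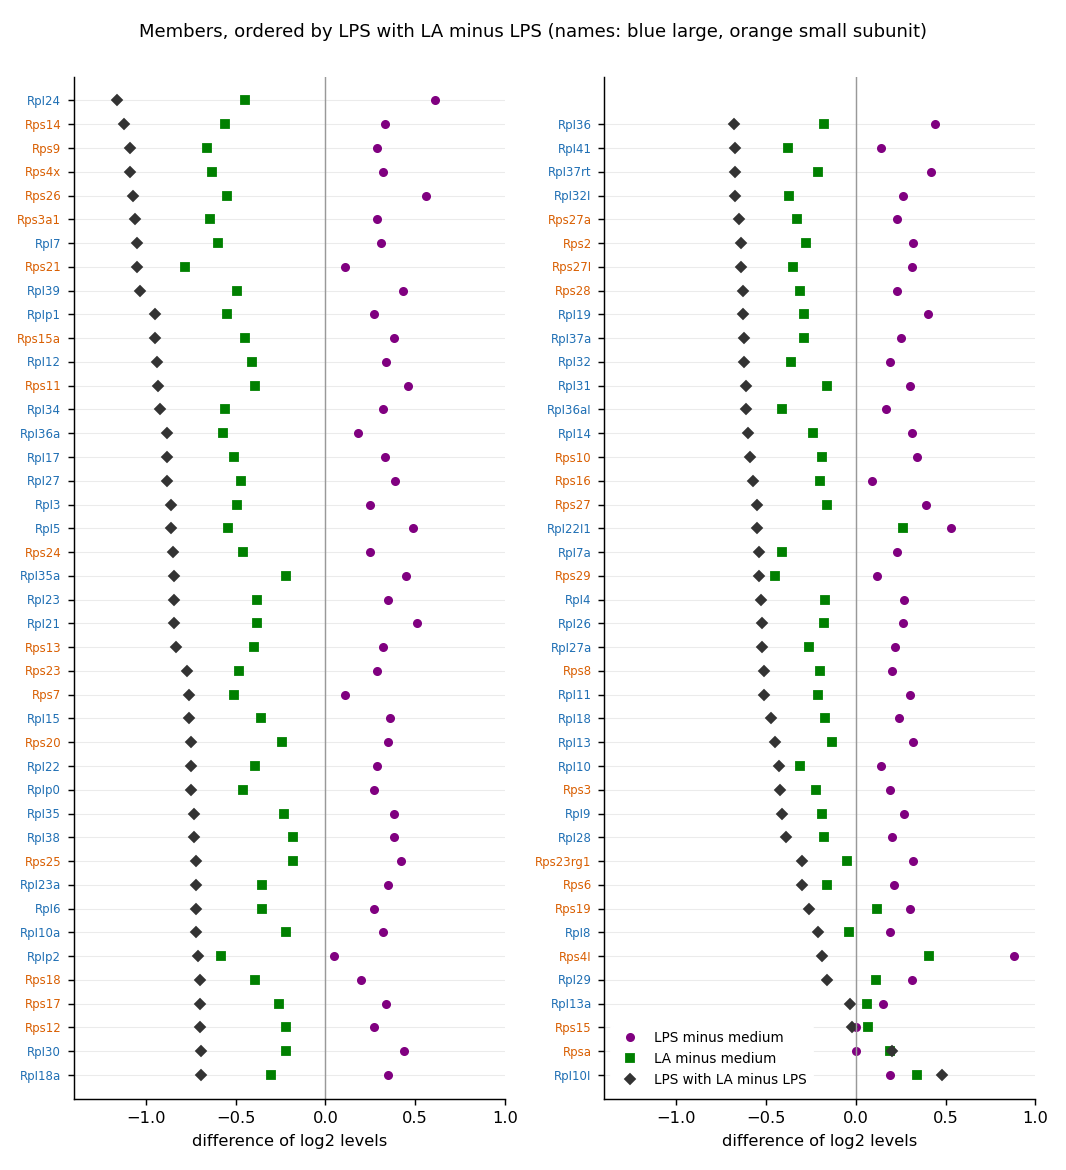
All but 1 of the 84 measured members (y axis, blue names large and orange names small subunit), ordered by LPS with LA minus LPS; symbols give the difference of log2 levels (x axis) for LPS minus medium (circles), LA minus medium (squares) and LPS with LA minus LPS (diamonds). For most members circles lie right of 0 and squares and diamonds left of it, and the last comparison has Rpl24 at -1.16 and Rpl10l at 0.48.

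A few members were not lower with LA, or less so than the rest. Rpsa lay at 5.16, 5.16, 5.35 and 5.36 on the medium, LPS, LA and combined arrays, so that both LA arrays were above both others. Its second probe lay at 4.09, 4.04, 4.15 and 4.21, with the LA arrays again the upper pair. Rps15 had levels of 7.40, 7.40, 7.47 and 7.38, all within 0.09 of each other, from 1 probe. Rpl13a, which as part of the GAIT complex also represses translation of inflammatory mRNAs in myeloid cells, lay at 4.95, 5.11, 5.01 and 5.08. Rpl29 had levels of 6.32, 6.63, 6.44 and 6.47, and its 3 probes gave -0.16, -0.25 and -0.51 for LPS with LA minus LPS. Rpl13a, like Rps15, has 1 probe, so only Rpsa and Rpl29 could be compared over probes. Both probes of Rpsa were higher with LA, by 0.20 and 0.16 for LPS with LA minus LPS.

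**Figure D4:**
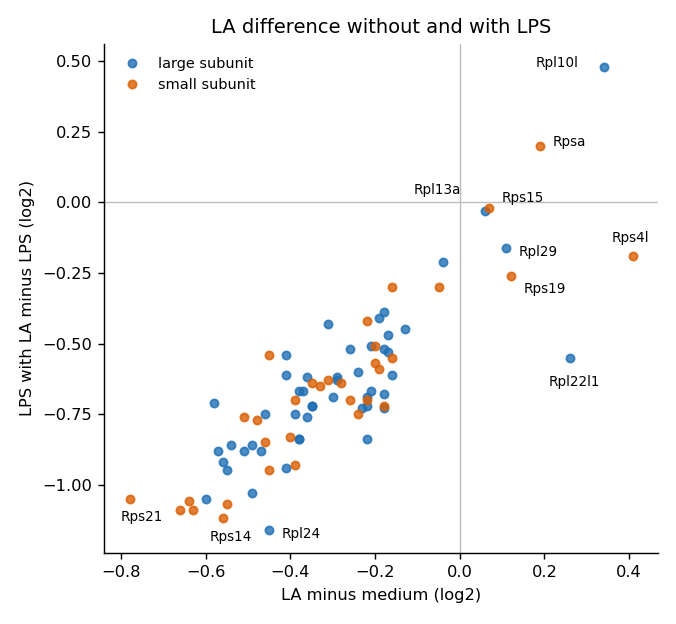
Each point is a measured member (all but 1 of the 84), with LA minus medium on the x axis and LPS with LA minus LPS on the y axis (both differences of log2 levels), coloured by subunit. The points run from low values such as Rps9 at -0.66 and -1.09 to Rpl10l at 0.34 and 0.48. Rps4l, Rpl22l1, Rps19, Rpl29, Rpl13a and Rps15 lie below 0 on the y axis only.

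These 2 LA differences share no array, so their likeness across members can be described. Over the 84 members Pearson's r was 0.86 and Spearman's rho 0.84, and without the 10 paralogs and retrogenes 0.88 and 0.84 over 76. Over all 13368 genes measured on the 4 arrays the values were 0.50 and 0.47. Members are not independent replicates, and points share the probe, its brightness and the slide. The LPS differences without and with LA (LPS minus medium, LPS with LA minus LA) had r of 0.14 and rho of -0.03 over members, near the 0.02 and -0.01 of all genes. Members spread little in the second of these, with an SD of 0.10 beside a spot SD of 0.072 for single spots. How well their order there is measured was not tested.

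With LA present, LPS made little difference to the members, as to bright genes in general. Their median for LPS with LA minus LA was -0.08, with quartiles of -0.12 and 0.00, and 80 of 84 lay between -0.25 and 0.25, as did 63.1% of all measured genes and 91.3% of those in the brightest decile. That decile had a median of -0.03 with quartiles of -0.13 and 0.06. At least 1.5-fold apart were 0 members, where 4.21% of 14903 measured genes were higher and 5.22% lower. Rpl10l (0.33), Rps4l (0.28) and Rpl5 (0.17) were the highest. Rpl22l1 and Rps16 (both -0.28) and Rps14 (-0.24) were the lowest. For 36 members the difference was within the spot SD, as it was for 39.6% of genes in the brightest decile.

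The LA difference with LPS minus that without LPS had a member median of -0.36, against -0.03 for all genes, so the median member was further down with LA when LPS was present. At least 1.5-fold lower by this measure were 5 members and 0 were higher, where 19.5% of genes lay past 1.5-fold on either side. The lowest were Rpl22l1 (-0.81), Rpl24 (-0.71) and Rpl35a (-0.62), and the highest Rpl10l (0.14), Rpsa (0.01) and Rpl13a (-0.09). In the brightest decile of genes the all-gene median was -0.19 and the members' -0.37, and scaled on the brightest decile of probes the member median was -0.04. Against medium, LPS with LA left 16 members at least 1.5-fold lower and 2 higher (Rps4l and Rpl10l), where 12.8% and 10.7% of genes were.

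The subunits had close medians. Those of the 50 measured large and 34 small subunit genes were 0.31 and 0.30 for LPS minus medium, -0.31 and -0.32 for LA minus medium, and -0.68 and -0.70 for LPS with LA minus LPS. Of the 10 members at least 2-fold lower in the last, 7 were small and 3 large subunit genes. The stalk genes, whose proteins recruit elongation factors to the large subunit, were all lower with LA. Rplp0 lay at 4.14, 4.41, 3.68 and 3.65 on the medium, LPS, LA and combined arrays. Rplp1 lay at 4.61, 4.88, 4.06 and 3.93, and Rplp2 at 7.17, 7.22, 6.59 and 6.51. In Rplp2 the LPS array was barely above medium, and in the other stalk genes it was 0.27 above.

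Members known for a role outside the ribosome or for their regulation were spread over the range. Rpl5 and Rpl11, which with the smallest ribosomal RNA of the large subunit inhibit the ubiquitin ligase Mdm2, lay at 4.46, 4.95, 3.92 and 4.09 and at 3.50, 3.80, 3.29 and 3.28. Rps6, the substrate of the S6 kinases of the mTOR pathway, lay at 5.75, 5.96, 5.59 and 5.66. With LA alone Rpl5 (-0.54) was thus further below medium than the median member, and Rps6 (-0.16) less far. The pyrimidine tract at the start of Rps6 and the palindrome upstream of it are shown above. Rps3, also described as a DNA repair enzyme and a partner of NF-kappaB, lay at 6.48, 6.67, 6.26 and 6.25. Rps19, mutated in Diamond-Blackfan anaemia, lay at 5.55, 5.85, 5.68 and 5.60. Its 2 probes gave 0.12 and -0.11 for LA minus medium, on either side of 0.

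Rpl38, which in mouse embryos is needed to translate a subset of Hox mRNAs, lay at 6.46, 6.84, 6.28 and 6.11. Rps27a, made as a fusion with ubiquitin, lay at 6.20, 6.43, 5.87 and 5.77. Both had the common order of arrays. Members whose promoter has the tract exactly at the start (12 with 1 promoter) had medians of 0.33, -0.23 and -0.69 for LPS minus medium, LA minus medium and LPS with LA minus LPS. For the 42 without it the medians were 0.27, -0.30 and -0.63. The ranges overlapped widely, from -0.95 to -0.30 with the tract and from -1.16 to 0.48 without it in the last comparison.

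Paralogs and retrogenes, extra copies of ribosomal protein genes that are often used in other tissues, included several members at the ends of the range. Of 10 such members 8 were measured, with medians of 0.32 for LPS minus medium, -0.13 for LA minus medium and -0.58 for LPS with LA minus LPS. The other 76 measured members had 0.30, -0.32 and -0.71. A probe for 1 copy can also bind the mRNA of a near-identical copy, so values within a pair are not fully separate.

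Rpl22, which binds structured RNA and is needed for T cell development, had levels of 3.95, 4.24, 3.56 and 3.48 on the medium, LPS, LA and combined arrays. Its paralog Rpl22l1 had levels of 0.86, 1.39, 1.12 and 0.84. With LA alone the parent gene was thus lower than in medium and the paralog higher, while with LPS and LA both were lower than with LPS. Rpl10, on the X chromosome, lay at 6.82, 6.97, 6.52 and 6.54. Rpl10l, its retrogene known from the testis, lay at -3.00, -2.81, -2.66 and -2.33, where it was dim but well above background on every array. The combined array was the highest for Rpl10l, while for Rpl10 both LA arrays lay below medium. Rps4x and Rps4l, given above, lay on opposite sides of medium with LA alone, at -0.63 and 0.41.

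Other pairs lay on the same side. Rpl36a and Rpl36al differed by -0.57 and -0.41 for LA minus medium and by -0.88 and -0.61 for LPS with LA minus LPS. Rps27 and Rps27l differed by -0.16 and -0.35 and by -0.55 and -0.64. Rpl3 and Rpl39 were measured and their paralogs Rpl3l and Rpl39l, known from striated muscle and testis, were not above background. Rpl3 differed by -0.86 and Rpl39 by -1.03 for LPS with LA minus LPS by the brightest probe, and by -0.01 to -1.09 and -0.50 to -1.22 over their 3 and 5 probes. The probe of Rpl37 was not above background on any array, while that of its retrogene Rpl37rt was, at 6.34, 6.76, 6.13 and 6.10. Rpl37 and Rpl37rt have 1 probe each, so these values do not show that Rpl37 mRNA was absent. Whether the Rpl37rt probe also read Rpl37 mRNA was not tested. Rpl37rt followed the common order of arrays.

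Probes of 1 gene mostly agreed. Of 149 member probes measured for LPS with LA minus LPS 143 lay below the median of all genes, and the median SD between probes of a member was 0.13. All probes lay on 1 side of 0 in 47 of 48 members with several measured probes in that comparison, in 45 of 49 for LA minus medium and in 43 of 48 for LPS minus medium. Rps20 was the widest for LPS minus medium, where its probes ranged from 0.32 to 1.95. The high value came from its dimmest probe, at -1.46, 0.49, -0.99 and -0.72 on the 4 arrays. By its brightest probe Rps20 lay at 6.43, 6.78, 6.19 and 6.03.

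Genes that share the ribosome's work were read from lists of names. Other mRNAs known as TOP mRNAs lay on the same side as the members. The list held 13 initiation and elongation factors and 9 other genes, such as Npm1, Hnrnpa1 and Vim. All 22 were measured, and their medians were 0.22 for LPS minus medium, -0.38 for LA minus medium and -0.74 for LPS with LA minus LPS. In the last 14 of 22 were at least 1.5-fold lower and 0 higher, where 22.5% and 21.4% of all genes were. The 14 were 8 of the 13 factors (median -0.69) and 6 of the 9 other genes (-0.81). The lowest were Eif3e, a subunit of the initiation factor eIF3, at -1.70 and Eef1b2, an exchange factor of elongation, at -1.19. The highest were Eif4b, a helper of the initiation helicase, at 0.51 and Eif3l at 0.18.

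Genes for ubiquitin-fused or ribosome-associated proteins had medians of 0.15, -0.24 and -0.38 over 9 measured of 10. In the last comparison Ltn1, a ubiquitin ligase of stalled ribosomes, had the highest value of the list (0.53), and Serbp1, a ribosome-binding protein, lay at -0.69. The other initiation and elongation factors, all 31 measured, had medians of 0.12, -0.16 and -0.30. In the last 11 were lower and 3 higher at 1.5-fold, where 22.5% and 21.4% of all genes were. Eif4e, which binds the mRNA cap, and Eif6, which keeps free large subunits apart from small ones, were the lowest there at -1.77 and -1.65. The factors thus leaned the same way with less uniformity.

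Ribosome biogenesis genes, which build ribosomes, differed from the members in the comparisons with the LPS array and leaned slightly their way with LA alone. The 55 measured of 60 ribosome biogenesis genes had a median of -0.20 for LPS minus medium. At 1.5-fold 7 were higher and 16 lower, where 16.3% and 17.4% of all measured genes were. For LPS with LA minus LPS the biogenesis genes had 0.07, with 13 on each side, near the 21.4% and 22.5% of all genes. Rrp1b and Tsr1, which act in ribosome assembly, were the highest there at 2.34 and 2.04, and Rcl1 and Sbds the lowest at -2.05 and -1.96. RNA polymerase I genes, which transcribe ribosomal RNA, had medians of -0.06 and 0.10 in these comparisons over 17 measured of 21. Mitochondrial ribosomal proteins, a separate set of 78 genes for the ribosome of mitochondria, had -0.31 and 0.07 over 75 measured. In LPS minus medium 23 of these 75 were at least 1.5-fold lower and 3 higher (17.4% and 16.3% of all genes), the opposite side from the cytosolic members. For LA minus medium the medians were -0.09 for biogenesis, with 40 of 58 genes below the median of all genes, and -0.10 for the mitochondrial set, with 45 of 76 below. For LPS with LA minus medium they were -0.12 and -0.19, with 38 of 58 and 54 of 76 below. RNA polymerase I genes did not lean that way. Their medians were 0.01 for LA minus medium, with 10 of 20 below, and 0.10 for LPS with LA minus medium, with 8 of 19 below. These lists are dimmer than the members, and genes of middle brightness had medians below 0 for LPS minus medium and above 0 for LPS with LA minus LPS. Set against all genes of the same level decile, the medians for LPS minus medium were -0.14 for biogenesis, -0.24 for the mitochondrial set and 0.15 for the members. For LPS with LA minus LPS they were 0.02, 0.08 and -0.48.

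Regulators of the mTOR and MYC pathways, which are known to control ribosome production, were spread over both sides. Over 28 measured of 29 the median for LA minus medium was 0.20, from Ddit4, an inhibitor of the mTOR pathway, at -3.17 to Myc, a transcription factor of ribosomal genes, at 1.92. Myc lay at 1.11, 1.15, 3.03 and 2.88 on the medium, LPS, LA and combined arrays, high on both arrays on which the members were low. Larp1, named above as the binder of the tract, lay at 2.88, 4.78, 3.07 and 3.04 and was highest on the LPS array, as most members were. Larp1 is no extreme of its list and was chosen after its values were seen. Mxd1, an antagonist of MYC, had the greatest LPS difference of the list (2.96) and the lowest value for LPS with LA minus LPS (-3.14). Whether any of these genes bears on the members was not tested.

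**Figure D5:**
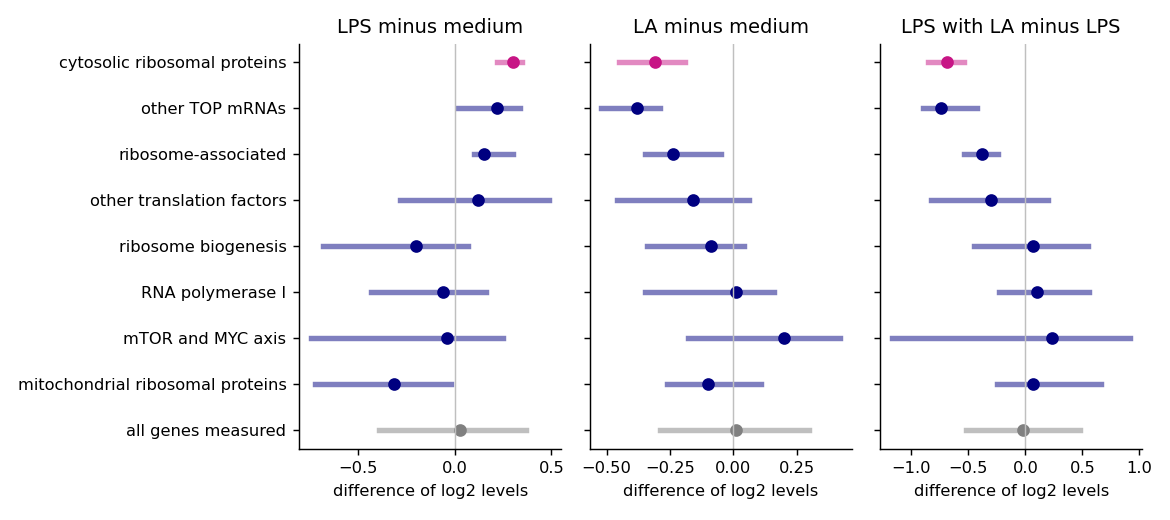
Median (point) and quartiles (bar) of the difference of log2 levels (x axis) for the members, 7 gene lists and all measured genes (y axis) in 3 comparisons. The members (0.30, -0.31, -0.69) and the other TOP mRNAs (0.22, -0.38, -0.74) lie close to each other, while ribosome biogenesis (-0.20, -0.09, 0.07) and mitochondrial ribosomal proteins (-0.31, -0.10, 0.07) lie apart from them in the first and last comparison.

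Marker genes of cell types differed between the same arrays. All 15 dendritic cell markers were well above background on every array, and held 0.236%, 0.243%, 0.178% and 0.168% of the summed signal on the medium, LPS, LA and combined arrays. All 13 macrophage and monocyte markers were as well, at 0.152%, 0.151%, 0.126% and 0.120%. The 12 neutrophil and precursor markers were also detected and went the other way in this sum, at 0.313%, 0.295%, 0.452% and 0.464%. Such a sum is set mostly by the brightest markers, and single markers of a list differed. For LA minus medium 10 of the 15 dendritic cell markers lay below the median of all genes and 5 above it. For LPS with LA minus LPS 9 lay below and 6 above. Of the macrophage and monocyte markers 11 and 10 lay below in these comparisons, and of the neutrophil markers 0 and 1. Mast cell, basophil and eosinophil markers (9 or 10 of 10 detected) held 0.0419%, 0.0561%, 0.0751% and 0.0798%. Lymphocyte markers were detected for 5 or 7 of 9 with Ms4a1 and Ncr1 on no array, erythroid markers for 3 or 4 of 5, and stromal markers for 5 or 6 of 7 with Cdh5 on no array. The part of these cells in the members' differences was not tested.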

How the data were processed

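RNA of the 4 groups was measured on single-colour arrays of 1 slide. The authors' array files hold, as spot intensity, the background-subtracted processed signal of Agilent Feature Extraction 12.0.3.1 per the file headers (11.5.1.1 in the submitters' processing notes). The authors also deposited a table of 31529 spots holding the same signal times 1 factor per array (6.67, 5.82, 8.38 and 9.30 for medium, LPS, LA and LPS with LA); its scale is linear, it is not centred, and its column medians were 1038, 873, 1164 and 1189. Outlier spots (129 to 154 per array) were left out and spots of a probe averaged. The deposited signals were taken to log2 and set against the 75th percentile over probes. Of 56605 probes, 33767 matched 1 symbol of a RefSeq table (GRCm38.p6) by transcript and 22838 none. The array headers name build mm9, from which no coordinate was used. R 4.3.3 with limma 3.58.1 served for quantile normalization and normexp (offset 50, on the median spot signal, since the planned mean is not in the array files used here); Python 3.11.15 with numpy 2.4.6 and pandas 2.3.3 did the rest, tested on simulated data. Named members (41) were the 6 highest and lowest per main comparison, the 3 highest and lowest for LPS with LA minus LA and the difference of differences, stalk genes, members with other roles, paralog pairs, and members whose probes disagree; lists named the 2 highest and lowest. Of these, 1 member and 1 listed gene are not reported here. Setting lists against genes of the same level decile was added after seeing the data. Members outside the naming rule (Rpl37, Rpl37rt and the promoter windows) were chosen after their values were seen. The members, lists and rules were chosen with earlier results of these data known.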

Additional observations from a re-analysis of the deposited data

How the results depend on the processing

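No paired analysis was possible because each group has 1 array, and for the same reason no array could be left out. The count of members at least 1.5-fold higher or lower, for LPS minus medium, LA minus medium, LPS with LA minus LPS, LPS with LA minus medium and the difference of differences, was 2, 6, 58, 18 and 5. It moved by over 1.5 times as follows. With the 75th percentile taken only over probes detected on every array it was 1 for LPS minus medium, 26 for LPS with LA minus LPS and 1 for the last. With median scaling it was 13 for LA minus medium and 8 for the last. With the brightest decile it was 0, 1, 11, 9 and 0, after quantile normalization 1, 0, 5, 5 and 1, and with the authors' scaling 1, 1, 11, 6 and 0. With normexp it was 0 for LPS minus medium, 11 for LA minus medium and 3 for the last. With the mean of all probes it was 4 for LPS minus medium. Without a filter on dim probes it was 2 for LPS with LA minus LA and 8 for the last. Without paralogs, and without paralogs and retrogenes (added after seeing the data), it was 1 for LPS minus medium and 3 for the last. The shares of all genes given above were taken with the 75th percentile of all probes and do not apply to the rescaled counts. The member median relative to that of all genes (0.27, -0.32, -0.67, -0.39 and -0.33) was 0.09, -0.16, -0.25, -0.19 and -0.13 after quantile normalization and 0.14, -0.24, -0.53, -0.28 and -0.21 without a filter. With normexp it was -0.47 for LPS with LA minus medium. A scaling by 1 factor per array cannot move it. In 55 of 66 such values the shift stayed within the spot SD, and in 0 did the direction change. The 66 include the scalings by 1 factor per array, whose values are fixed, so this count does not measure stability. The shifts beyond the spot SD are those just given for quantile normalization, no filter and normexp, and their cause was not tested. Dim members (Rpl10l, Rps4l) rest on signals nearer background.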
